A study of Homo sapiens with 3 samples.

Results

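The enzymes that write and erase methyl and acetyl groups on histones and DNA were described in the human cell line MDA-MB-231, a widely used model of triple-negative breast cancer. The 71 genes were chosen by symbol out of 11916 protein-coding genes that had a probe set with a single gene symbol in the platform annotation. They were all those whose symbols start with KDM, KMT, KAT and a digit, HDAC, SIRT and a digit, SETD, PRMT, DNMT or TET and a digit. Probe sets with several gene symbols were left out, and the families are not complete. KMT2A, KMT2E, KAT6A, SETD1B and TET3, for example, are not among the 71. The 71 genes comprised 19 histone demethylases (KDM), 2 TET dioxygenases, 32 writers (KMT, SETD, PRMT, KAT and DNMT) and 18 deacetylases (HDAC and SIRT). Classes were assigned by symbol alone, so a gene's class does not show that its protein is active on histones or DNA. Enzymes of the same kinds under other symbols, such as EZH2 or EP300, are not in these families and are given apart. The groups were cells kept for 72 h with 1% DMSO as the vehicle control, with 10 µM CFX, or with 10 µM Mt-CFX, and the DMSO content of the compound cultures is not given in the sources used here. Ciprofloxacin, which the title of the series names, is a fluoroquinolone antibiotic, while Mt-CFX carries only a code name in the labels. Each group was 1 array of 1 cell line, so the values carry no replicate error, no test could be made, and how far repeat cultures would differ is unknown. Values are log2 expression per probe set, on which a difference of 1 is a doubling.

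Histone tails carry methyl groups on lysine and arginine and acetyl groups on lysine, which are added by methyltransferases and acetyltransferases and removed by demethylases and deacetylases. Most histone demethylases are JmjC enzymes that need iron, oxygen and 2-oxoglutarate, while KDM1A and KDM1B use a flavin. The writers take their methyl groups from S-adenosylmethionine and their acetyl groups from acetyl-CoA, and the sirtuins consume NAD, so these enzymes are often discussed as links between metabolism and chromatin. DNA methyltransferases methylate cytosine in CpG dinucleotides, and TET enzymes oxidise the methylated base.

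On at least 1 array, 65 of the 71 genes reached a floor of 3.89 log2, which is the median over all probe sets, and these 65 are the genes counted below, with 17 histone demethylases, 2 TET genes, 29 writers and 17 deacetylases among them. The demethylases KDM4E and KDM5D, the writers PRMT8, SETD9 and DNMT3L and the mitochondrial sirtuin SIRT4 stayed below it on every array. Over the whole series, 8868 protein-coding genes passed the same floor. Exactly equal values on all 3 arrays were found for 28 of the 65 members, or 43.1%, and for 45.3% of those 8868 genes. Different genes also shared exact values. DNMT3B and the related genes DMAP1 and PAGR1 were all at 5.2818 log2 on each array, and KDM4A and ESCO1 were both at 7.0864 with CFX. The cause of these ties was not tested, so single values may not be separate measurements. The median difference was 0.00 log2 in every comparison for the demethylases, the writers and the deacetylases, as it was for all genes. The members are therefore described by their counts, means and single values. Of the line's markers, AXL, VIM, EGFR and CD44 were at 7.31 log2 or higher on the 3 arrays. PGR was at 2.39 on each, and ESR1 at 3.81 in the control and with Mt-CFX and at 3.92 with CFX. EPCAM, GATA3 and KRT8, markers of epithelial or luminal cells, were above the floor at 5.11 to 5.83, and CD44 was lower by 0.34 with Mt-CFX than in the control. The part of these markers in the results was not tested.

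The promoters of the histone demethylase and the writer with the highest differences, and of the writer with the lowest, are shown for orientation only. They run from 250 bases before to 50 after the annotated start, 5′ to 3′ on the gene's strand, with every CpG in capitals, and are RefSeq sequences of the build GRCh38.p14. The KDM7A window lies at chr7:140176934-140177233 on the minus strand, the PRMT3 window at chr11:20387466-20387765 on the plus strand and the KAT5 window at chr11:65712002-65712301 on the plus strand.
KDM7A: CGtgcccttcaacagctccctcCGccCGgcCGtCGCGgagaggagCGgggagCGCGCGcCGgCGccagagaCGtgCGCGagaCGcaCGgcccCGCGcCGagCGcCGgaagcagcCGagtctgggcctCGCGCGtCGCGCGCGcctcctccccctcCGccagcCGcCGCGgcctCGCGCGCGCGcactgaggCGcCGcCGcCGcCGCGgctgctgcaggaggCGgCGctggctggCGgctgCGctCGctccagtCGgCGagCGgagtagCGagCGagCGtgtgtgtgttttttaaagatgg
PRMT3: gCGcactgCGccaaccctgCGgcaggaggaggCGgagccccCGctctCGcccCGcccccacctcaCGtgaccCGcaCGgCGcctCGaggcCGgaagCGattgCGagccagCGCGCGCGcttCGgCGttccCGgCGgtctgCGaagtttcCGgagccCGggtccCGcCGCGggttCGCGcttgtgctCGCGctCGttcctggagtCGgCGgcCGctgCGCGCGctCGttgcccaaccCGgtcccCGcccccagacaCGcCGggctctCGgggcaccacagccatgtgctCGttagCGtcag
KAT5: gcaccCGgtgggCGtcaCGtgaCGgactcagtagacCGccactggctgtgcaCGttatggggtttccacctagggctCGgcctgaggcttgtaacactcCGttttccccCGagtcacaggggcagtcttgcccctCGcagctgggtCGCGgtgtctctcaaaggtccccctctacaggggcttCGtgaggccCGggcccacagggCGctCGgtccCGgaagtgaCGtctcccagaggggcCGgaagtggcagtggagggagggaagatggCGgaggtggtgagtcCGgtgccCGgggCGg
The KDM7A window held 56 CpGs, more than 99.7% of the 35116 promoter windows of this length in the table, and the PRMT3 window held 48. The KAT5 window held 23, against a median of 14 over all windows and of 28 over the 97 windows of the 62 members that matched by symbol. KDM6B, not printed here, was higher with Mt-CFX over control than PRMT3, by 0.582 against 0.572 log2. Its 2 windows held 24 and 2 CpGs, more than 66.1% and 11% of all windows. A C/EBP-ATF element, searched as TGATGNAA on both strands, was in 3.62% of all windows and in a window of 0 of the 62 members. An E-box, CACGTG, was in 7.26% of all windows and in a window of 12 members, among them PRMT3 and KAT5. The half-site TGACGT, on either strand, was in 7.98% of all windows and in a window of 7 members, among them KAT5. An E2F site, TTTCCCGC on either strand, was in 1.63% of all windows and in a window of 3 members, KDM1B, PRMT7 and SIRT6. Some genes have several windows, so these shares are not over the same unit, and a match describes the letters of a window alone.

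Between Mt-CFX and the vehicle, the histone demethylases were the class with the most members on the higher side. Of 17 demethylases, 4 were at least 1.2-fold higher with Mt-CFX and 0 were at least 1.2-fold lower, and the 4 were KDM7A, KDM6B, KDM4A and KDM1B. Of 29 writers, 3 were higher by that size, PRMT3, SETD7 and KMT5A, and 2 were lower, KAT5 and SETD1A. These are 10.3% and 6.9% of the writers, beside 5.99% and 5.73% of all genes, so the lower share was close to that of all genes. Of 17 deacetylases, SIRT7 alone was higher and 0 were lower. KDM7A, at 3.41-fold above the vehicle, was the only member past 1.5-fold or 2-fold.

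Over all members, 8 of 65 were at least 1.2-fold higher with Mt-CFX than in the control, or 12.3%, beside 5.99% of all genes. At least 1.2-fold lower were 2 of 65, or 3.08%, beside 5.73% of all genes. At 1.5-fold, 1 member was higher, beside 1.45% of all genes, and 0 were lower, beside 1.25% of all genes. At 2-fold the same member was higher, beside 0.304% of all genes. By class, 23.5% of the demethylases, 10.3% of the writers and 5.88% of the deacetylases were higher by 1.2-fold, so the share of deacetylases was close to that of all genes. These shares rest on 4, 3 and 1 genes, and no test of the difference between classes was made. The mean difference was 0.17 log2 over the demethylases, 0.014 over the writers and -0.0016 over the deacetylases, which turned to 0.015 with a floor at the 75th percentile. Without KDM7A the mean of the demethylases was 0.071, and 3 of the other 16, or 18.8%, were higher by 1.2-fold.

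**Figure D1:**
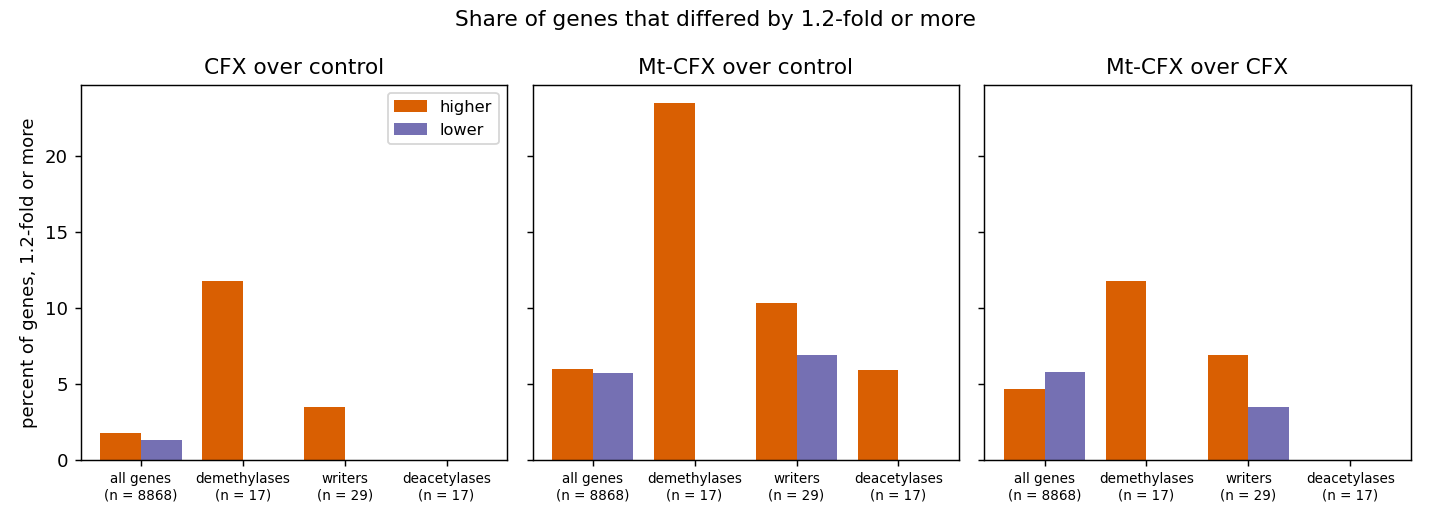
Percent of genes at least 1.2-fold higher (orange) or lower (purple) in each comparison, for all 8868 protein-coding genes and for the demethylases, writers and deacetylases above the floor. With Mt-CFX over control, 23.5% of 17 demethylases were higher beside 5.99% of all genes; bars stand for single arrays and have no error.

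KDM7A encodes a JmjC demethylase with a PHD finger that removes repressive methyl marks from histone H3. It was at 4.68 log2 in the control, 5.11 with CFX and 6.45 with Mt-CFX. The level was above the floor on all 3 arrays, lowest with the vehicle and highest with Mt-CFX, with a difference of 1.77 log2 between these arrays. Among the 8868 genes, 8 had a difference from the control at least as high, KDM7A included. The gene had 1 named probe set, so its values could not be compared with another.

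KDM6B, which removes methyl groups from the histone mark of Polycomb repression and is known as a gene induced in inflammatory cells, was at 5.55 in the control, 5.58 with CFX and 6.13 with Mt-CFX. Its difference of 0.582 from the control lay just under 1.5-fold, which is 0.585. The array with Mt-CFX stood apart from the other two. KDM6A, its X-linked relative with the same substrate, was at 5.68 on each array.

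KDM4A, a demethylase of trimethylated lysines of histone H3, was at 6.79 in the control, 7.09 with CFX and 7.23 with Mt-CFX. Here the CFX array lay nearer to Mt-CFX than to the vehicle. KDM4B was lower with Mt-CFX by 0.08, KDM4D was higher by 0.035 and KDM4C was equal on the 3 arrays, so none of these relatives reached 1.2-fold. KDM4D lay near the floor, at 4.16 to 4.20, and KDM4E below it, so their values say little. KDM1B, a flavin-dependent demethylase, was at 6.68, 6.82 and 7.03 on the control, CFX and Mt-CFX arrays. The better known flavin enzyme KDM1A, the demethylase of the CoREST complex, was at 8.10 in the control, 8.10 with CFX and 8.06 with Mt-CFX.

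The demethylase with the lowest difference between Mt-CFX and control was KDM2B, which binds unmethylated CpG and brings a variant Polycomb complex to CpG islands, at 5.48 in the control, 5.49 with CFX and 5.26 with Mt-CFX. Its difference of -0.23 did not reach 1.2-fold. KDM2A, KDM3A, KDM4C, KDM5B, KDM6A and KDM8 each had equal values on the 3 arrays. KDM5A, a demethylase of the active promoter mark, was higher by 0.081 on both compound arrays, while KDM3B, KDM5C and KDM4D differed from the control by 0.035 or less.

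**Figure D2:**
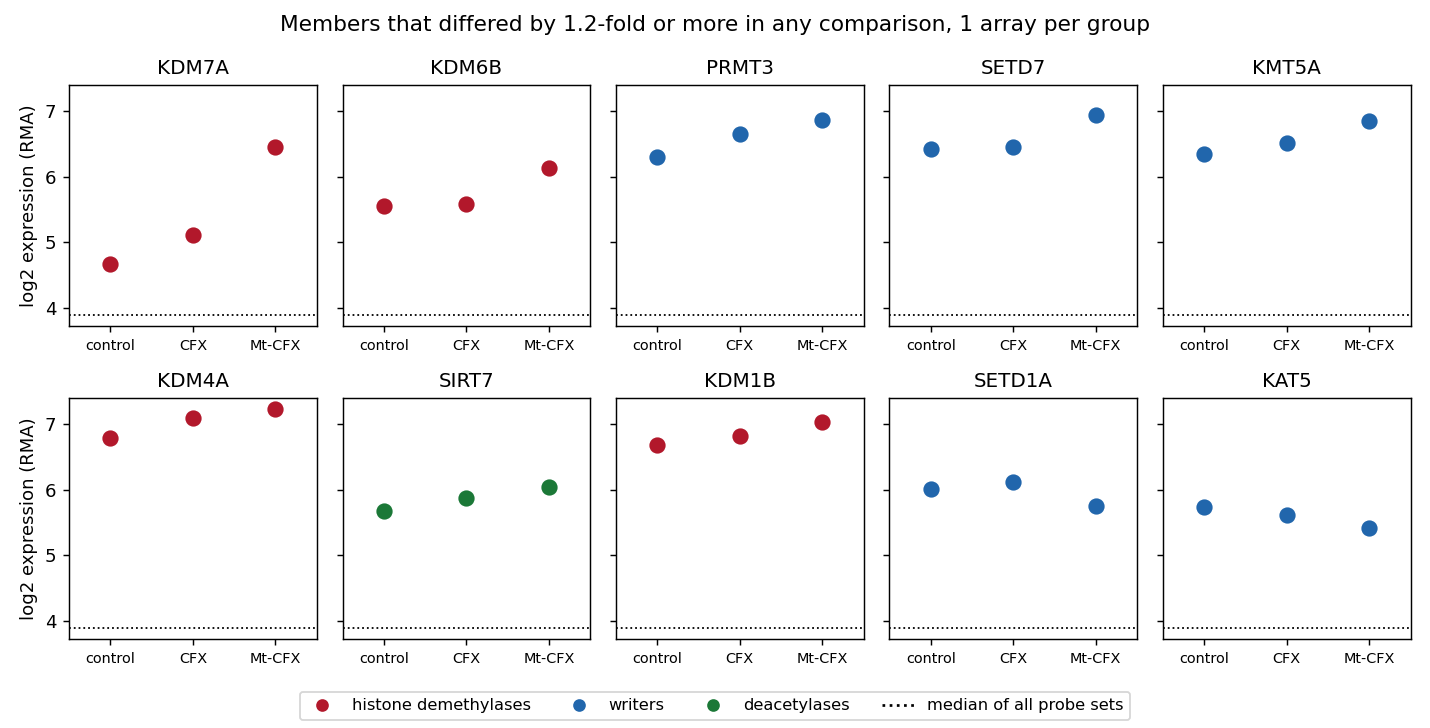
Log2 expression on the control, CFX and Mt-CFX arrays for the 10 members that differed by 1.2-fold or more in any comparison, 1 point per array; colours mark the class and the dotted line the median of all probe sets, 3.89. KDM7A stands at 4.68 (control) and 6.45 (Mt-CFX), and KAT5 at 5.74 and 5.41.

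Among the writers, the arginine methyltransferase gene PRMT3, whose known substrate is a protein of the small ribosomal subunit, was at 6.30 in the control, 6.65 with CFX and 6.87 with Mt-CFX. The difference from the control was 0.57 log2, with the CFX array between the others. PRMT7, which makes monomethylarginine, had the lowest difference of its family, -0.22, at 6.74, 6.69 and 6.52. PRMT1, the main source of asymmetric dimethylarginine in cells, was at 5.45 on each array, and PRMT2, PRMT5, PRMT6 and PRMT9 were equal on the 3 arrays.

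SETD7, a lysine methyltransferase of histone H3 and of many other proteins, was at 6.42 in the control, 6.45 with CFX and 6.94 with Mt-CFX, so that only the Mt-CFX array stood apart. KMT5A, which monomethylates histone H4 and whose protein is regulated through the cell cycle, was at 6.34, 6.51 and 6.84. Its relative KMT5B was higher with Mt-CFX by 0.085, and KMT5C was equal on the 3 arrays.

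SETD1A, a catalytic subunit of the COMPASS complexes that methylate active promoters, was at 6.01 in the control, 6.11 with CFX and 5.75 with Mt-CFX. It was lower than the control with Mt-CFX and higher than it with CFX. KMT2B, another subunit of this kind, was at 6.62, 6.50 and 6.40, a difference of -0.23 with Mt-CFX. KMT2C and KMT2D, the enhancer methyltransferases, and SETD2, SETD6 and KMT5C were equal on the 3 arrays.

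KAT5, the acetyltransferase of a complex that acts in transcription and DNA repair, was the member with the lowest difference, at 5.74 in the control, 5.62 with CFX and 5.41 with Mt-CFX. The difference from the control was -0.33 log2, a level of 0.797 of the control, and 368 of 8868 genes had a difference as low or lower. KAT6B was lower by 0.19, at 7.09 in the control and with CFX and 6.91 with Mt-CFX. KAT7, an acetyltransferase linked to the licensing of replication origins, was at 6.39 in the control and at 6.49 with either compound. KAT2A and KAT2B differed by 0.026 or less, and KAT8 and KAT14 were equal on the 3 arrays.

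Of the DNA methyltransferases, DNMT1, which copies methylation to the new strand after replication, was at 8.97 in the control and with CFX and at 8.75 with Mt-CFX. The difference of -0.22 did not reach 1.2-fold. The establishing enzymes DNMT3A and DNMT3B had equal values on the 3 arrays, at 5.04 and 5.28. On the erasing side, TET1 was at 5.17 in the control and with CFX and was lower by a difference of -0.17 with Mt-CFX, while its other probe set, at 1.80 on each, was below the floor. TET2 was at 5.96 on the 3 arrays. The Mt-CFX array was thus lower for DNMT1 and TET1 by less than 1.2-fold, and the other 3 DNMT and TET genes above the floor were equal. TET3 was not among the members.

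Among the deacetylases, most genes were equal with Mt-CFX and in the control, and SIRT7 alone reached 1.2-fold. Of 11 HDAC genes, 0 lay above the control, 5 lay below it and 6 were equal, with differences of -0.18 to 0.00, beside 23.9% higher, 23.2% lower and 52.9% equal among all genes. None of the 11 reached 1.2-fold, and 11 genes are too few to compare these shares. HDAC3, the catalytic subunit of the NCoR complexes, had the lowest difference, at 6.79 in the control, 6.78 with CFX and 6.60 with Mt-CFX. HDAC1, found in the Sin3, NuRD and CoREST complexes, was at 8.11, 8.11 and 7.97, and the tubulin deacetylase HDAC6 was at 5.38, 5.38 and 5.25. None of these reached 1.2-fold. HDAC2, the close relative of HDAC1, was at 6.31, 6.44 and 6.27, and its other probe set lay below the floor on every array. HDAC4, HDAC5, HDAC7, HDAC8, HDAC9 and HDAC11 were equal on the 3 arrays.

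Of 6 sirtuin genes above the floor, 2 were higher with Mt-CFX than in the control, 0 were lower and 4 were equal. These are 33.3%, 0% and 66.7%, beside 23.9%, 23.2% and 52.9% of all genes, and 6 genes are too few to compare the shares. SIRT7, a deacetylase of the nucleolus and of chromatin, was at 5.68 in the control, 5.87 with CFX and 6.03 with Mt-CFX. The chromatin-bound SIRT6 was at 5.77 in the control and with CFX and at 5.91 with Mt-CFX. SIRT1, the most studied nuclear member, was equal on the 3 arrays. Of the mitochondrial sirtuins, SIRT3 was equal on the 3 arrays, and SIRT5 was at 5.33 in the control and with Mt-CFX and at 5.25 with CFX.

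**Figure D3:**
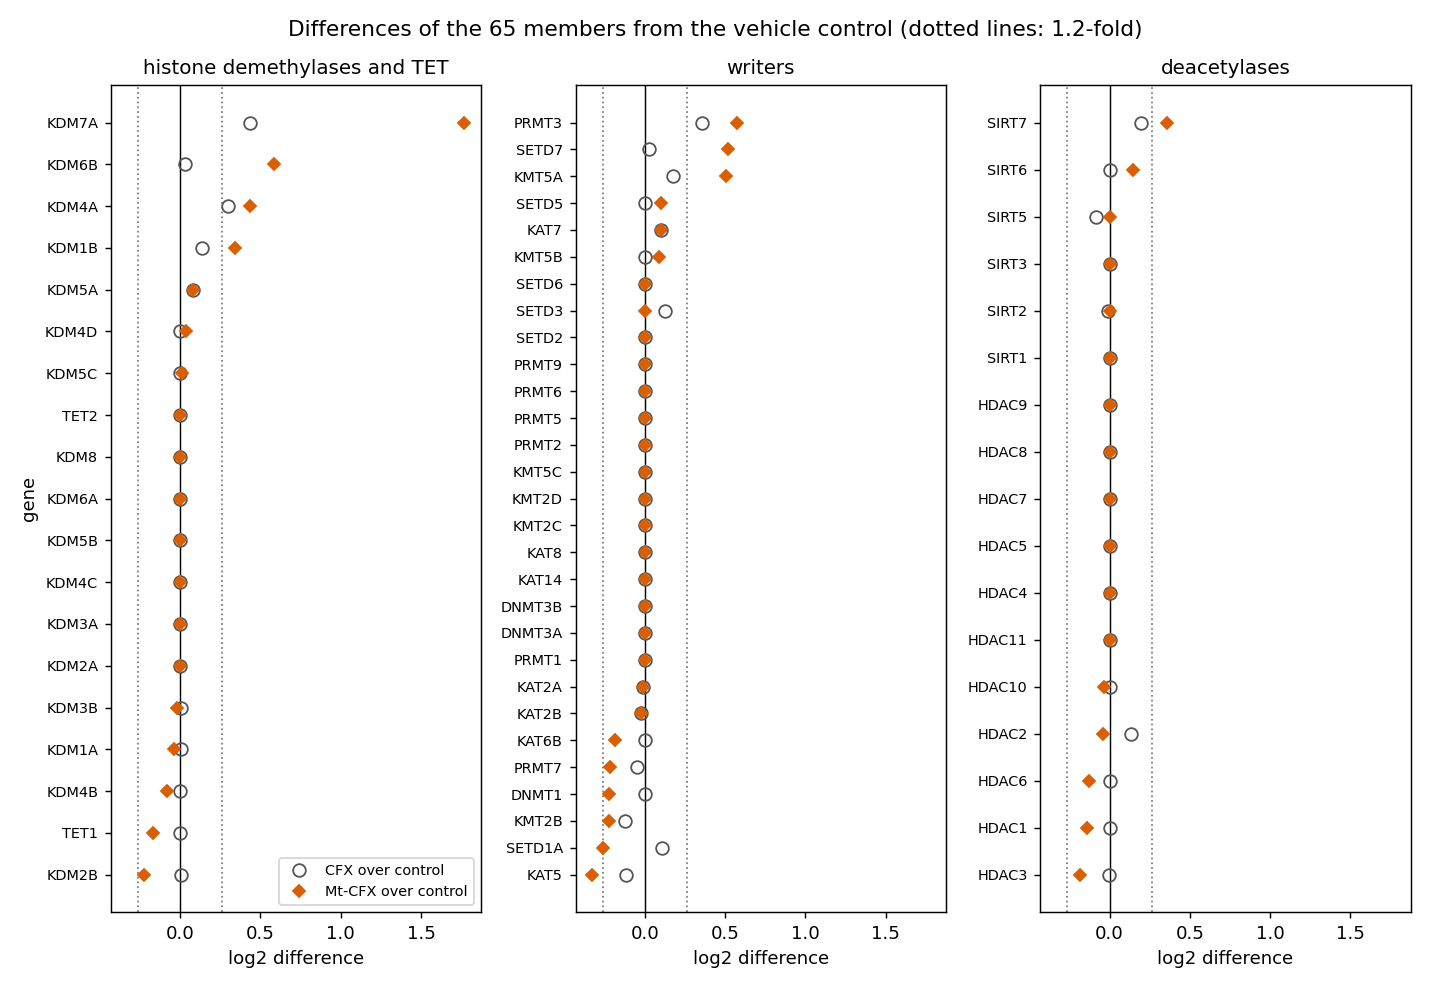
Log2 differences from the control with CFX (open circles) and with Mt-CFX (diamonds) for the 65 members above the floor, ordered by the Mt-CFX difference within each panel; dotted lines mark 1.2-fold. Both comparisons use the same control array. KDM7A at 1.77 lies far from every other member, and HDAC genes lie at 0 or below with Mt-CFX, all within 1.2-fold.

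With CFX, the differences from the vehicle were smaller. At least 1.2-fold higher were 3 of 65 members, or 4.62%, beside 1.76% of all genes, and 0 members were lower by that size, beside 1.29% of all genes. The 3 were KDM7A at 0.43 log2, PRMT3 at 0.36 and KDM4A at 0.30. No member reached 1.5-fold in either direction, beside 0.0451% of all genes higher and 0.101% lower. Values above the control were found for 8 of the 17 demethylases, values below it for 0, and equal values for 9, beside 25.8%, 15.0% and 59.2% of all genes. The mean was 0.058 log2, or 0.035 without KDM7A, and KDM3B, KDM2B and KDM1A were among the 8 with differences of 0.0078 or less. Of the 29 writers 6 lay above the control, 5 below it and 18 level with it, and the mean was 0.019. Of the 17 deacetylases 2 lay above, 3 below and 12 level, and the mean was 0.014, with a range of 0.005 to 0.035 over the processing alternatives. The lowest differences were those of KMT2B at -0.13 and KAT5 at -0.12. The comparisons of CFX and of Mt-CFX with the vehicle share the control array, so their likeness is not given as a result.

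Set against CFX at the same dose and time, Mt-CFX gave at least 1.2-fold higher values for 4 of 65 members, or 6.15%, beside 4.68% of all genes. Lower by that size was 1 member, or 1.54%, beside 5.76% of all genes. KDM7A was 2.52-fold higher with Mt-CFX than with CFX, KDM6B was higher by 0.55 log2, SETD7 by 0.50 and KMT5A by 0.33, and SETD1A was lower with a difference of -0.37. At 1.5-fold, 1 member was higher, beside 1.13% of all genes, and 0 were lower, beside 1.03% of all genes. At 2-fold KDM7A was again the member counted, beside 0.259% of all genes. The class means were 0.11 log2 for the demethylases, or 0.036 without KDM7A, -0.0050 for the writers and -0.015 for the deacetylases. PRMT3, KDM4A, KDM1B and SIRT7 lay above their CFX values by 0.14 to 0.21 on the Mt-CFX array, under 1.2-fold. No interval of these differences can be given from 1 array per compound, so a small difference does not show that the compounds act alike on a gene.

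Around these enzymes, 9 lists of related genes held 216 genes under other symbols, of which 151 were measured and 143 lay above the floor. With Mt-CFX over control, 7 of the 143 were at least 1.2-fold higher and 7 were at least 1.2-fold lower, or 4.90% each, at or under the 5.99% and 5.73% of all genes. The 2 that reached 1.5-fold were NAMPT and UHRF1. NAMPT, the rate-limiting enzyme of NAD salvage and so of the sirtuins' cofactor, was at 8.66 in the control, 8.77 with CFX and 9.52 with Mt-CFX. UHRF1, which brings DNMT1 to newly replicated DNA, was at 8.28, 8.07 and 7.09, beside the smaller difference of DNMT1 given above.

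The counts by list were 0, 1 or 2 genes, too few to set apart from the shares of all genes, 5.99% higher and 5.73% lower. Of the other histone methyltransferases above the floor, 1 of 16 was lower by 1.2-fold with Mt-CFX and 0 were higher. Of 11 other JmjC and demethylase genes 1 was higher, HSPBAP1, and 1 was lower, JMJD8. This list is wider than the histone demethylases. PHF8 and PHF2, also in it, differed from the control by 0.12 and -0.017. Of 11 other acetyltransferases 1 was higher and 1 was lower. Of 22 Polycomb partners 0 reached 1.2-fold in any comparison. Of 13 COMPASS partners 2 were lower and 0 were higher, and of 21 corepressor partners of deacetylases 1 was higher and 0 were lower. Of 27 acetyltransferase complex subunits 2 were higher and 0 were lower, of 9 DNA methylation partners 1 was higher and 1 was lower, and of 14 genes of cofactor metabolism 1 was higher and 1 was lower. The median of each list was 0.00 log2 in this comparison, as it was for all genes.

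Further genes of these lists were chosen after their values were seen. PHF21A, a subunit of the complex that holds KDM1A, was at 6.80 in the control, 6.91 with CFX and 7.33 with Mt-CFX. HCFC1, a scaffold shared by COMPASS complexes, was at 8.72, 8.71 and 8.26, and PAXIP1, a partner of KMT2C and KMT2D, was at 6.93, 6.99 and 6.61. Both partners and SETD1A were lowest on the Mt-CFX array, but these 2 were picked for their size. Of all 13 COMPASS partners, 1 was higher with Mt-CFX than in the control, 5 were lower and 7 were equal. These are 7.69%, 38.5% and 53.8%, beside 23.9%, 23.2% and 52.9% of all genes, and 13 genes are too few to compare the shares. WDR5, WDR82 and MEN1 were among the lower ones, with differences of -0.046, -0.049 and -0.076. CXXC1, RBBP5 and DPY30 were among the equal ones, and BOD1 was the higher one, by 0.14. KMT2C and KMT2D were themselves equal on the 3 arrays. The cohesin acetyltransferases parted, with ESCO1 at 6.82, 7.09 and 7.26 and ESCO2 at 6.43, 6.64 and 6.11 on the control, CFX and Mt-CFX arrays. MBD1, a reader of methylated CpG, was at 5.94 in the control and with CFX and at 6.33 with Mt-CFX, and MTR, methionine synthase, was at 8.37 in the control and 8.23 with CFX, with a difference of -0.36 between Mt-CFX and control.

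**Figure D4:**
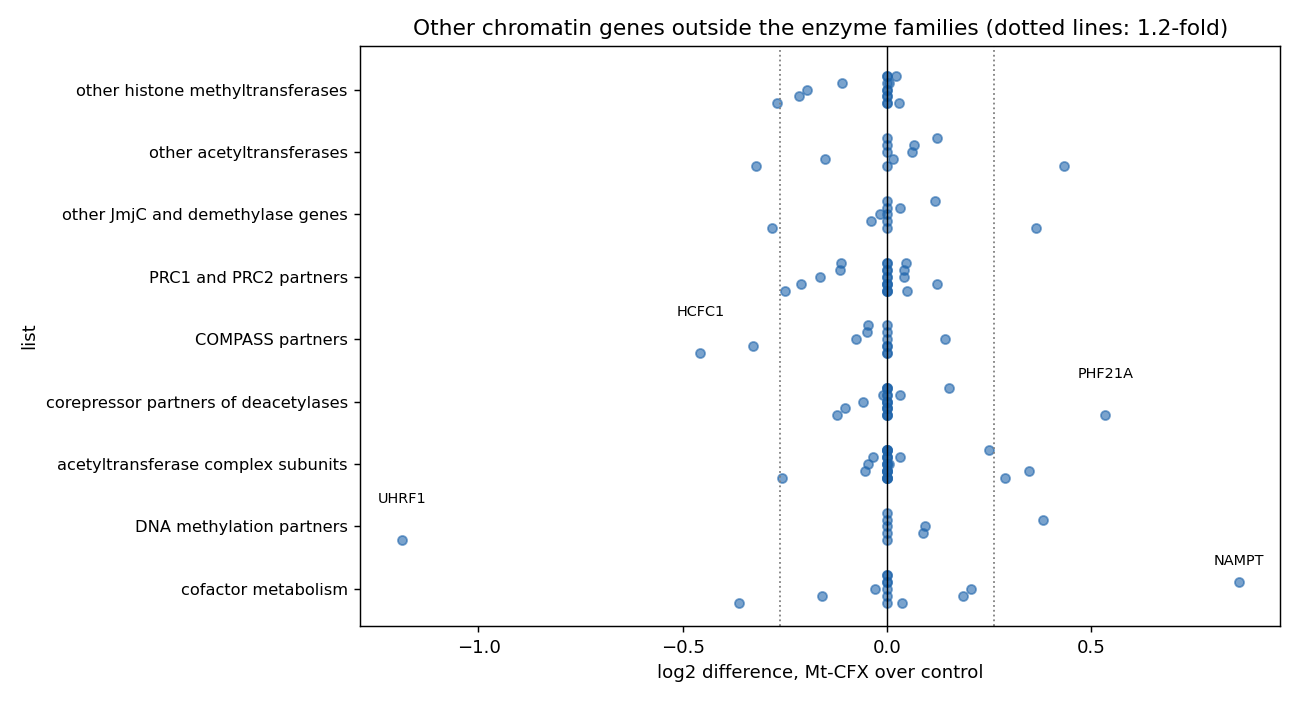
Log2 difference between Mt-CFX and control for the genes above the floor in each of the 9 related lists, 1 point per gene; dotted lines mark 1.2-fold. UHRF1 at -1.19 and NAMPT at 0.86 lie farthest from 0, while most other genes lie at or near 0.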

How the data were processed

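Per the labels' protocols, total RNA was amplified and biotin-labelled with GeneChip WT kits. The deposited values were log2 expression per probe set, which per the submitters' processing notes the authors made by RMA with the Affymetrix Expression Console; the version, annotation release and genome build are not given in the sources used here. RMA gives the probe intensities of all arrays a common distribution before they are summarised by probe set, so a difference in total RNA cannot be seen. The medians of the deposited values were 3.91 log2 in the control, 3.90 with CFX and 3.88 with Mt-CFX. Of 53617 probe sets, 49.5% were equal on all 3 arrays.

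The platform annotation gave a single gene symbol to 16098 probe sets, all matched to the reference table by gene ID. Probe sets with several symbols were left out. Each gene was read at the probe set with the highest mean over the arrays, which concerned HDAC2, HDAC4 and TET1 among the members, and kept when its highest array reached the median of all probe sets. Differences of log2 values were counted at 1.2, 1.5 and 2-fold, with no test, since each group was 1 array, and this number limits the precision. Values on the 3 arrays are given for members past 1.5-fold in any comparison and for the highest and lowest of each family with Mt-CFX, and further for members past 1.2-fold and others of use. Of related lists, genes past 1.5-fold were named by rule. Members, lists, sizes and motifs were chosen with earlier results of these data known. Counting at 1.5-fold was tested on simulated data without ties, with planted differences well past that size. Counting at 1.2-fold was not tested in this way. As alternatives the floor was dropped, set on the arrays' mean or raised to the 75th percentile, several probe sets of 1 gene were averaged, and differences were re-centred by a lowess curve with a span of 0.3. Leaving KDM7A out was added after the data were seen. Python 3.11.15, numpy 2.4.6, pandas 2.3.3, statsmodels 0.14.6 and matplotlib 3.10.9 were used.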

Additional observations from a re-analysis of the deposited data

Results flagged for a closer look

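Among non-coding genes whose symbols start like those of the members, which entered no comparison above, KDM7A-DT, a transcript named as divergent from KDM7A, was at 3.79 log2 in the control, 3.76 with CFX and 4.23 with Mt-CFX. It drew attention because its Mt-CFX value passed the floor of 3.89 and lay above the control by 0.44 log2. The control and CFX values were below the floor, so the size is uncertain, and the array cannot show whether its probes read any KDM7A transcript. KDM4A-AS1 was at 4.31, 4.20 and 4.34, and KMT2E-AS1 was equal on the 3 arrays.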

How the results depend on the processing

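Under each of the 5 alternatives the counts of members at 1.2-fold and 1.5-fold were as given above. The alternatives had little room to act. For the 10 members past 1.2-fold, 120 of 150 values could not move, since a floor leaves a gene's difference as it is and each has 1 probe set, and re-centring moved the other 30 by at most 0.000 log2 after rounding. Over the alternatives, with Mt-CFX over control, the mean of the demethylases ran from 0.152 to 0.219, that of the writers from 0.013 to 0.017 and that of the deacetylases from -0.011 to 0.015, so the last has no settled sign. With CFX over control the mean of the deacetylases ran from 0.005 to 0.035. The number of members kept was 71 with no floor, 47 with the floor at the 75th percentile and 64 with the mean of probe sets. These settings share the same 3 arrays and say nothing about the spread between cultures. Leaving out KDM7A, added after the data were seen, took the mean of the demethylases from 0.170 to 0.071 with Mt-CFX over control, from 0.112 to 0.036 with Mt-CFX over CFX and from 0.058 to 0.035 with CFX over control. No paired analysis was possible because each group was 1 array. With exact ties in 43.1% of the members, differences under 1.2-fold carry little weight, and a gene listed as equal cannot be called without response. Fewer cells in a state and less RNA per cell cannot be told apart in bulk RNA.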
